A study of Danio rerio with 4 samples.

Results

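The messenger RNA pool of whole wild-type zebrafish embryos at sphere stage is described here, with no contrast to the mutant. Its members were the genes to which the deposited comparison table gives the status OK, and only the column for wild-type embryos was read. That status was reached by 20206 of the 32468 genes listed. The series holds 2 wild-type samples of strain AB, out of 4 samples in all, the others being MZ*eomesa* embryos that lack maternal and zygotic Eomesa. Both wild-type samples were RNA from untreated whole embryos, prepared as poly(A) libraries. The table gives 1 value per gene, in which both samples are combined, so no value per sample, standard deviation or test exists for any level below, and the depth of sequencing is not known. The unit is FPKM, fragments per kilobase of transcript scaled to the number of mapped fragments, which permits comparison of levels between genes.

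In zebrafish the egg is loaded with maternal RNA, and the first rapid cleavages run on that supply. The zygotic genome is activated during the blastula stages, shortly before sphere, while maternal transcripts are being cleared. Germ layers are not yet separated at sphere stage, the margin is receiving Nodal signals and the outermost cells are forming a simple epithelium called the enveloping layer. A level at this stage can therefore come from the egg or from the embryo's own genome, and a combined value cannot tell the 2 sources apart. In whole embryos, fewer cells expressing a gene and less RNA per cell cannot be told apart either.

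The level of a wild-type transcript spanned from 0 to 10829 FPKM, with a median of 4.92 FPKM and a mean of 25.9 FPKM. A level of at least 1 FPKM was reached by 14768 genes (73.1% of those with status OK), a level of at least 10 FPKM by 7586 (37.5%), a level of at least 100 FPKM by 981 (4.85%) and a level of at least 1000 FPKM by 29. At the other end, 146 genes were listed at exactly 0, which is possible because the status also depends on reads in MZ*eomesa* embryos. Genes outside the status OK held little of the listed sum. The genes with status OK carried 99.2% of the FPKM summed over all listed genes. The highest of the 12061 genes marked as not tested had 0.155 FPKM. An exact 0 can be a failed estimate, since *mt-co1*, a mitochondrial gene marked as having too much data, was listed at 0. Its share of the pool is therefore unknown.

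A small fraction of genes made up most of the pool. The highest gene held 2.07% of the summed FPKM, the 10 highest genes 6.46% (3.95% without the mitochondrial chromosome), the 100 highest 20.7% and the 1000 highest 51.9%. Put the other way, 154 genes held 25% of the sum, 904 genes (4.47%) held 50% and 5979 genes held 90%. The middle of the range carried much of the sum too. Genes between 10 and 100 FPKM, 6605 in number, held 42.4% of the sum, and the 952 genes between 100 and 1000 FPKM held 40.1%. The 29 genes above that held 11.4%, whereas the 4966 genes between 0.1 and 1 FPKM held 0.401%.

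**Figure D1:**
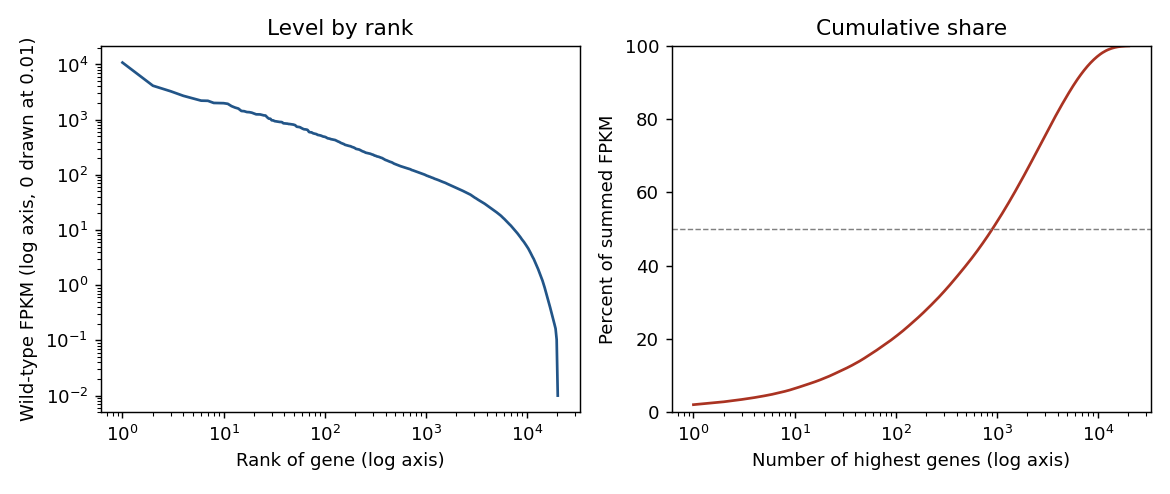
Wild-type FPKM of each gene against its rank (left, both axes logarithmic) and the percent of summed FPKM held by the highest genes (right, logarithmic x axis), for the 20206 genes with status OK. The curve on the right crosses the dashed line at 50% at 904 genes.

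Mitochondrially encoded transcripts stood at the top. *mt-atp8*, encoding a small subunit of ATP synthase, had the highest value at 10829 FPKM, followed by the cytochrome oxidase subunits *mt-co2* at 4126 FPKM and *mt-co3* at 3270 FPKM. *mt-cyb*, encoding cytochrome b, had 2429 FPKM, *mt-atp6* had 1991 FPKM and *mt-nd4l*, a subunit of complex I, had 1340 FPKM. *mt-atp8*, *mt-atp6* and *mt-co3* share 1 listed span of the mitochondrial chromosome, 8894 to 10589, so the division of reads among them is uncertain, and *mt-atp8* is also very short, which makes a value per kilobase imprecise. Likewise *mt-nd4l* and *mt-nd4* share the span 11009 to 12679, and *mt-nd5* and *mt-nd6* the span 12897 to 15232. Their values are uncertain too. At least 100 FPKM was reached by 4.85% of all genes and by all 12 mitochondrial genes of the class, down to 413 FPKM for *mt-nd5*. Together the 12 held 5.40% of the sum. Without genes that share a listed span, the class held 2.03%, less than the 4.26% then held by splicing and hnRNP proteins. The further cytochrome oxidase subunit *mt-co1*, marked as having too much data and listed at 0, is missing from these ranks and shares.

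The leading nuclear transcripts encoded proteins of chromatin, RNA binding, translation and the cell cycle. *h3f3a* (chromosome 3, 45814483 to 45816236), which encodes the replacement form of histone H3, had 2706 FPKM, and *h3f3d* (chromosome 24, 39191743 to 39196042), another gene of that histone, had 1939 FPKM. *eef1a1l1* (chromosome 19, 45287383 to 45303320), the elongation factor that brings aminoacyl-tRNA to the ribosome, had 2213 FPKM. *hnrnpa0l* (chromosome 14, 40345952 to 40347380), an hnRNP protein that binds nascent RNA, had 2197 FPKM. Its neighbour *hnrnpa0* lies 1333 bases away on the same chromosome and had a lower level, so that the 2 genes came to 2862 FPKM together.

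Cyclins were prominent among the 30 highest genes. *CCNA2 (1 of 2)* had 2011 FPKM and *ccna2*, 19188 bases away on chromosome 14, had 1190 FPKM. Both are named as cyclin A2, which drives S phase and entry into mitosis, and they are possible near-identical copies among which the authors' program divided shared reads, so each value is uncertain while their sum was 3200 FPKM. *ccnb1*, the mitotic cyclin B, had 1246 FPKM. *RRM2 (1 of 2)*, a subunit of the reductase that makes deoxynucleotides, had 1245 FPKM, and its span overlaps that of another gene.

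The other nuclear genes of the 30 highest came from several functions. The RNA-binding proteins *khdrbs1a*, *HNRNPAB (2 of 2)* and *cirbp*, the last induced by cold in many vertebrates, had 1758, 1591 and 1290 FPKM. The DNA-bending HMG proteins *hmgb2a*, which shares its span with another gene, and *hmga1a* had 1656 and 1250 FPKM. The constitutive chaperone *hspa8* had 1424 FPKM, cytoplasmic actin *actb2* had 1223 FPKM, *oaz1*, which restrains polyamine synthesis, had 1197 FPKM and the small protein gene *serf2* had 1375 FPKM. The lysosomal protease *ctsl1a*, the calcium-binding protein *s100a1* and the unnamed model *zgc:113886* closed the group at 1046, 1040 and 972 FPKM.

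A transcription factor was among them. The model *zgc:193933* on chromosome 24 (12738148 to 12743225), which the current annotation names *nanog*, had 1105 FPKM and ranked 27. Nanog is a homeobox activator that helps start transcription of the zygotic genome.

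Ribosomal RNA genes were present despite poly(A) selection. One *5_8S_rRNA* gene on chromosome 4 had 1439 FPKM and one *5S_rRNA* gene on chromosome 20 had 1366 FPKM. The unnamed model *AL935186.6*, which ends 2203 bases before that *5_8S_rRNA* gene, had 1999 FPKM and ranked 9. These are short or repeated genes whose values are uncertain. Of the 30 highest genes, 6 share their listed span with another gene, as do 2811 (13.9%) of all genes with status OK.

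Grouped by gene name, 18 classes covering 1937 genes (9.59%) held 26.9% of the summed FPKM. Unnamed clones and models, 5127 genes, held 12.7%, and the remaining 13142 named genes held 60.4%. The classes were assigned from symbols alone and are therefore incomplete.

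RNA processing proteins formed the leading class of nuclear genes. The 87 splicing and hnRNP proteins held 3.87% of the sum, 8.98 times their share of genes, with a median of 125.9 FPKM. Of them, 51 had at least 100 FPKM, as did 4.85% of all genes. Chromatin and HMG proteins, 139 genes, held 2.51% with a median of 26.03 FPKM. After *hmgb2a* and *hmga1a*, the highest of that class was *cbx3a*, a heterochromatin protein.

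The protein synthesis machinery was abundant as well. The 84 cytoplasmic ribosomal proteins held 2.38% of the sum with a median of 125.6 FPKM. Of them, 80 had at least 10 FPKM, as did 37.5% of all genes. Levels in this class were even rather than led by a few genes. The highest, *rpl12*, with a shared span, had 729 FPKM and made up 5.86% of the class, ahead of *RPL29* and *rps14*. In contrast, *eef1a1l1* made up 20.1% of the 84 translation factors, which held 2.11% with a median of 51.7 FPKM. *EIF1B* and *pabpc1a*, the latter coating poly(A) tails, followed it.

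Genes of proliferation were also present. The 91 cell cycle genes held 1.99% of the sum with a median of 26.2 FPKM, and the 50 DNA replication genes held 1.05% with a median of 38.4 FPKM. In the latter class *RRM2 (1 of 2)* was followed by *gmnn* and *cdt1*, which encode geminin and the licensing factor it binds, and all 3 have spans that overlap another gene. Without genes of shared span the class held 0.491%. Protein folding and turnover were similar in weight. Chaperones, 110 genes, held 1.21%, led by *hspa8*, *hsp90ab1* and *dnaja2*. The 103 proteasome and ubiquitin genes held 1.11%, led by the ubiquitin genes *ubc* and *UBB* and the proteasome activator gene *psme3*. *UBB* and *psme3* each have a span that overlaps another gene.

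Histones were divided by kind. The class of 49 genes held 1.35% of the sum, but its median was 3.88 FPKM. The 14 genes not named as HIST genes reached 2706 FPKM, had a median of 44.9 FPKM and held 1.32%, led by *h3f3a*, *h3f3d* and the maternal linker histone *h1m* at 861 FPKM. The 35 genes named as members of replication-dependent clusters had a median of 3.66 FPKM and did not exceed 13.5 FPKM. Replication-dependent histone mRNAs mostly end in a stem-loop rather than a poly(A) tail, so poly(A) libraries are known to recover them poorly, and their low values are no measure of their amount in the embryo.

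Energy metabolism showed a similar divide. In contrast to the mitochondrial genome, the 104 nuclear genes of oxidative phosphorylation held 0.700% of the sum with a median of 17.0 FPKM. At least 100 FPKM was reached by 4.85% of all genes and by 8 of these 104. *ATP5G2* and *atp5a1*, both of ATP synthase, and *NDUFC2*, of complex I, were the highest. The 12 mitochondrial genes, which leave out *mt-co1*, had a median of 1099 FPKM.

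Egg coat genes were still present. Of 14 zona pellucida genes, which encode the envelope of the egg, 13 had at least 10 FPKM, as did 37.5% of all genes. The median of the 14 was 42.4 FPKM, and none of them reached 100 FPKM, where 4.85% of all genes did. The highest of the class were both entries of *zp3.2*, which share a span, and *zp2*. Actins and tubulins held 0.403% of the sum, of which *actb2* made up 58.05%, and *actb2* exceeded *actb1*, at 334 FPKM, by 3.66 times, with the tubulin gene *tubb4b* next. The epithelial keratins and claudins, 30 genes, held 0.223% with a median of 1.36 FPKM, and *cldn7b*, *cldnd* and *cldng* were the highest. Numbered zinc finger proteins, 166 genes, held 0.592%, less than their share of genes, with *ZNF664*, *ZNF706* and *ZNF281 (1 of 2)* on top.

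Short non-coding RNA genes were numerous but held little. The 668 small nucleolar and nuclear RNA genes held 1.002% of the sum, led by *snoU6-53*, *SNORD22* and a further *snoU6-53* entry, both *snoU6-53* entries lying in 1 shared span, and the class fell to 0.527% without shared spans and to 0.584% without spans under 300 bases. The 108 ribosomal RNA genes held 0.804%, or 0.171% without spans under 300 bases. The 19 microRNA genes held 0.132%, or 0.00137% without such spans. Of these, 8 belonged to the *mir-430* family, which promotes clearance of maternal RNA, with a median of 74.0 FPKM and up to 170 FPKM for *dre-mir-430a-22*. These family members are near-identical copies, 5 of them with the same value, and 56 family entries are listed in all. Poly(A) libraries hold precursors of such RNAs at most, so these values describe library content.

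**Figure D2:**
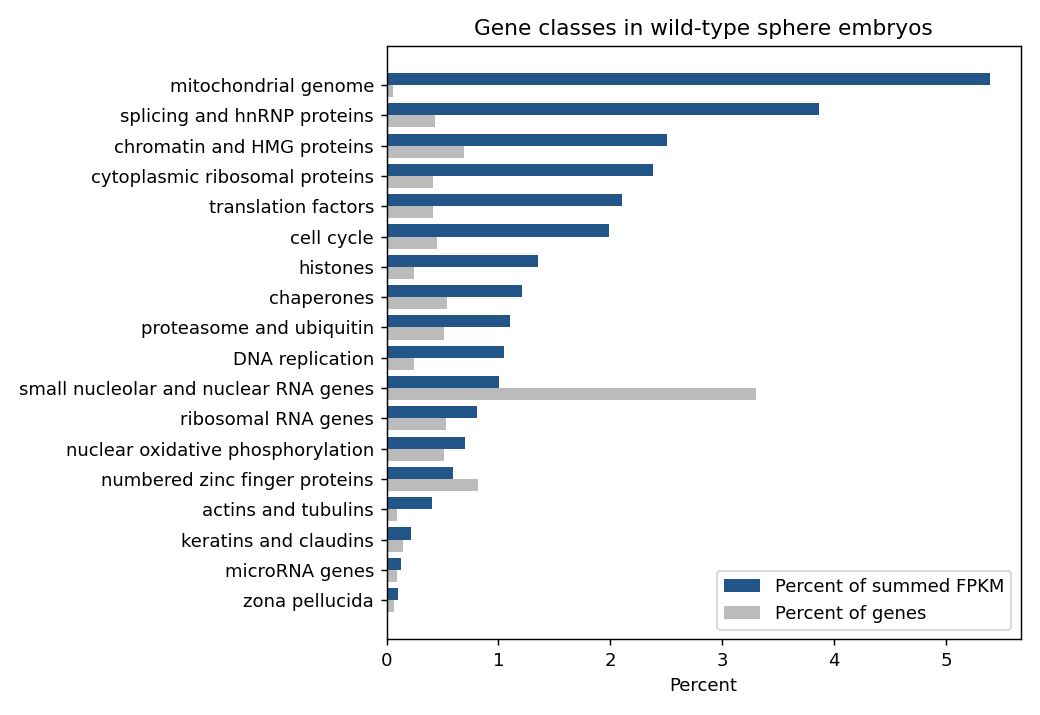
Percent of summed wild-type FPKM (blue) and percent of the 20206 genes with status OK (grey) for 18 gene classes assigned by name. The mitochondrial genome, without *mt-co1*, held 5.40% and splicing and hnRNP proteins 3.87% of the sum. This order turned to 2.03% and 4.26% without genes of shared span. Small nucleolar and nuclear RNA genes took a larger share of genes than of FPKM.

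Curated lists of 213 genes were then used to set maternal, early zygotic and germ-layer genes side by side. A table symbol matched 196 of them, a current symbol of the same identifier matched 12, and 5 were not matched. The 81 genes of the 5 maternal lists with status OK had a median of 49.2 FPKM (quartiles 21.5 and 119 FPKM), against a median of 4.92 FPKM over all genes. The list of activators among them also holds *sox2*, *sox3* and *sox19a*, relatives of the maternal factor *sox19b*, so not every member is taken to be maternal. The maternal lists also hold genes of general function, such as *ccnb1*, *ctcf*, *tbp* and *upf1*. Their median is therefore not a measure of maternal against zygotic RNA. At least 10 FPKM was reached by 74 of the 81, or 91.4%, where 37.5% of all genes reached that level. The 25 early zygotic genes had a median of 41.6 FPKM, similar to that of the maternal lists, and 22 reached 10 FPKM. The 54 genes of the germ layers and axes had a median of 6.44 FPKM (quartiles 0.857 and 20.5 FPKM), and 19 of them, or 35.2%, reached 10 FPKM, which is near the share of all genes. In the summed FPKM these groups weighed 2.09%, 0.405% and 0.201%. The lists were chosen with earlier results of these data known, so differences from all genes can partly come from that choice.

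**Figure D3:**
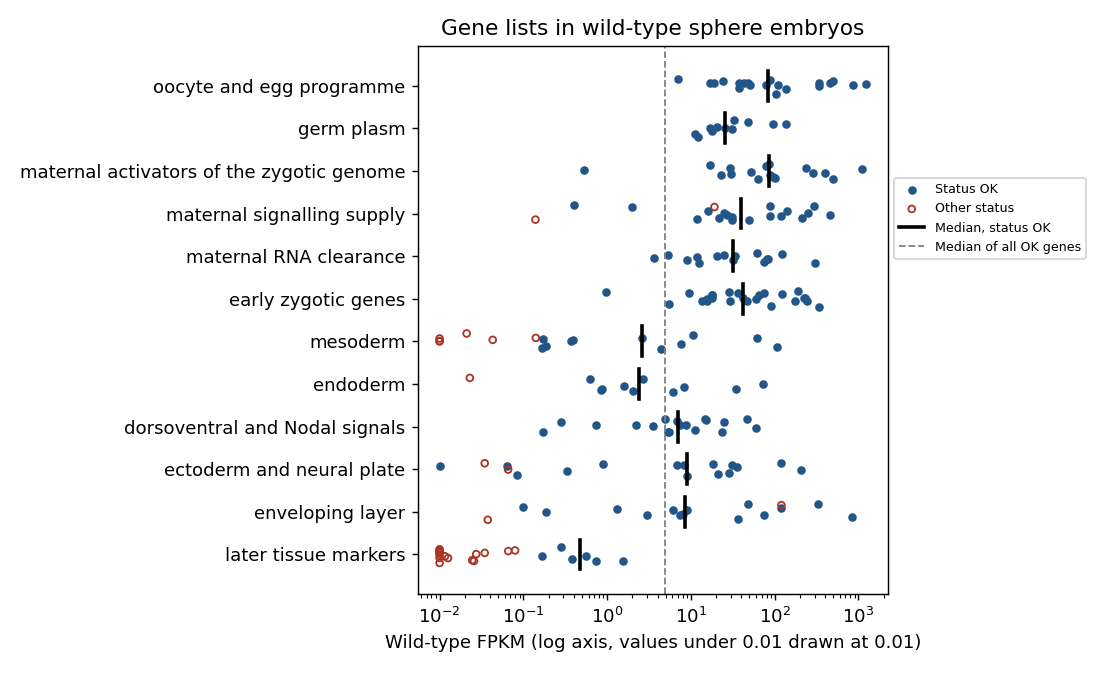
Wild-type FPKM (logarithmic axis) of each matched gene by list, filled where the status is OK and open otherwise, with the list's median over genes with status OK as a black bar and the median of all genes, 4.92 FPKM, as a dashed line. The medians of the maternal and early zygotic lists lie to the right of the dashed line, although single members lie to its left, mesoderm and endoderm genes spread across it with medians to its left, and the later tissue markers lie to its left.

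Markers of differentiated tissues were read next, which can tell these embryos from much older ones but not from other early stages. Of 21 matched markers of neurons, glia, muscle, blood, liver, pancreas, eye, cartilage and gonad, 20 were below 1 FPKM. Of all 32468 listed genes, whatever their status, 17604 were below that level. Among the markers, 1 was not. The exception was the skeletal muscle actin *acta1b* at 1.54 FPKM, which shares its span with another gene. Insulin (*ins*) was listed at 0, and the muscle factor *myod1* had 0.00811 FPKM, the glial filament *gfap* 0.00683 FPKM and the erythroid factor *gata1a* 0.0257 FPKM. Only 6 of the 21 had status OK. Besides *acta1b*, those with status OK were *elavl3* at 0.728 FPKM, *ckma* at 0.561 FPKM, *snap25a* at 0.386 FPKM, *try* at 0.282 FPKM and *tfa* at 0.165 FPKM. The neuronal gene *elavl3* was thus above the endoderm gene *sox17*, at 0.626 FPKM. The vitellogenin gene *vtg1*, a marker of adult liver, was not tested and had 0.0346 FPKM.

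Genes of the oocyte and egg had a median of 83.7 FPKM. Against 37.5% of all genes, 19 of these 20 reached 10 FPKM. The mitotic cyclin gene *ccnb1* was the highest at 1246 FPKM, followed by the linker histone *h1m* at 861 FPKM, *ccnb2* at 491 FPKM and the germline cyclin *ccna1* at 459 FPKM. RNA-binding proteins came next. Of these, the Y-box protein gene *ybx1* had 342 FPKM, the zinc finger gene *cth1* had 338 FPKM and *igf2bp3* had 103 FPKM. The 2 nucleoplasmin genes of the egg, which handle chromatin after fertilisation, differed: *npm2b* had 138 FPKM and *npm2a* 37.5 FPKM. *btg4*, an adaptor that brings the deadenylase to maternal messages, had 110 FPKM.

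The remaining oocyte genes were lower but still above the median of all genes. The embryonic poly(A)-binding protein *pabpc1l* had 79.8 FPKM and *fbxo5*, an inhibitor of the anaphase-promoting complex, had 87.5 FPKM. The oogenesis-related gene *org* had 50.5 FPKM, the egg envelope genes *zp2* and *zp3b* had 48.6 and 37.5 FPKM, and the histone stem-loop binding protein *slbp2*, which shares its span with another gene, had 43.1 FPKM. *zar1*, a gene of oocyte RNA control, had 24.1 FPKM, and its paralogue *zar1l*, with a shared span, had 16.9 FPKM. The polyadenylation factor *cpeb1b* had 18.99 FPKM. The lowest member was *mos*, the kinase that arrests the egg in meiosis, at 6.99 FPKM.

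Germ plasm is the cytoplasm that founds the germ line, and in the blastula it lies in few cells. At least 10 FPKM in whole embryos was reached by 37.5% of all genes and by all 11 germ plasm genes, whose median was 25.4 FPKM. Whole-embryo values do not show in which cells these RNAs lay. The germline helicase *ddx4*, named *vasa* in the table, had 137 FPKM and *buc*, which organises the Balbiani body of the oocyte, had 96.1 FPKM. *ca15b*, a transcript localised to germ plasm, had 47.6 FPKM. The Piwi genes *piwil1*, which shares its span with another gene, and *piwil2* had 32.6 and 12.2 FPKM, and *tdrd7a*, a component of germ granules, had 30.8 FPKM. The translational repressor *nanos3* had 25.4 FPKM, the RNA-binding *dazl* 17.1 FPKM and *dnd1* 11.4 FPKM, the lowest of the list. *grip2a* and *rgs14a* had 20.7 and 18.0 FPKM.

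The activators of the zygotic genome and their partners had a median of 85.2 FPKM. Of these, 16 of 17 reached 10 FPKM, against 37.5% of all genes. Of the factors that open the zygotic genome in zebrafish, *nanog* had 1105 FPKM, *pou5f3* (named *pou5f1* in the table) had 493 FPKM and *sox19b*, the maternal SoxB1 factor, had 96.1 FPKM. *nanog* thus exceeded *pou5f3* by 2.24 times. The related SoxB1 genes *sox3* and *sox19a* had 85.2 and 79.1 FPKM, close to *sox19b*, whereas *sox2*, which shares its span with another gene, had 0.534 FPKM. *sox2* was the only member of this list under 10 FPKM, and *sox19b* exceeded it by 180 times.

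Partners of Nodal signalling in this list were at intermediate levels. *foxh1*, the DNA-binding partner of Smad2, had 101 FPKM, the T-box gene *eomesa* had 62.6 FPKM and *smad2*, which shares its span with another gene, had 51.7 FPKM. General regulators spread more widely. The insulator protein gene *ctcf* had 395 FPKM and the bromodomain gene *brd3a*, with a shared span, had 291 FPKM. The TATA-binding protein gene *tbp* had 235 FPKM and *gtf2b* had 87.0 FPKM. The gene that the table names *tbpl2*, the oocyte paralogue of *tbp*, had 29.8 FPKM, but its identifier carries another current symbol, so its identity is uncertain. The acetyltransferase genes *ep300b* and *ep300a*, the latter with a shared span, had 23.2 and 17.0 FPKM.

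The maternal supply of signalling components had a median of 40.01 FPKM. Of its 18 genes with status OK, 16 reached 10 FPKM, against 37.5% of all genes. For the Nodal pathway, the ligand partner *gdf3* (named *dvr1* in the table, Vg1 in frogs) had 453 FPKM and the co-receptor *oep* had 140 FPKM. The receptors *acvr1ba* and *acvr2ba* had 87.3 and 87.2 FPKM, *acvr2aa* had 11.9 FPKM and the common mediator *smad4a* had 30.8 FPKM. The Nodal ligands themselves were far lower, with *ndr1* at 8.85 FPKM and *ndr2* at 4.90 FPKM, so that *gdf3* exceeded *ndr1* by 51.1 times and *ndr2* by 92.3 times. The antagonists of Nodal, *lft2* and *lft1*, were near the ligands at 6.86 and 5.38 FPKM.

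The BMP pathway patterns the ventral side, and its transducers varied widely. The effector *smad5* had 211 FPKM, 8.87 times the level of the ligand *bmp2b*, whereas *smad1* had 0.139 FPKM and was not tested. The type I receptors *acvr1l* and *bmpr1aa*, the latter with a shared span, had 119 and 21.5 FPKM, the second of these below the ligand *bmp2b*. Among ligands, *bmp2b* had 23.8 FPKM, *bmp7a* 14.8 FPKM, *radar* (named *gdf6a*) 1.97 FPKM and *bmp4* 0.743 FPKM. The pseudoreceptor *bambia* had 46.6 FPKM. The antagonists *chd* and *nog1* had 11.1 and 3.52 FPKM, and *szl*, which protects Chordin from cleavage, had 2.23 FPKM.

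In the Wnt pathway both beta-catenin genes were abundant. *ctnnb2*, the gene of the maternal dorsal axis, had 291 FPKM and *ctnnb1* had 250 FPKM, a ratio of 1.16. In the destruction complex, the scaffold *axin1* had 49.2 FPKM, and of its kinases *gsk3a*, which was not on the list, had 53.8 FPKM and *gsk3b* had 0.405 FPKM, the lowest of the list with status OK. The repressors *tcf7l1a* and *tcf7l1b* had 30.9 and 26.9 FPKM, and the co-receptor *lrp6* had 15.8 FPKM. The ligand *wnt8a* was marked as failed at 19.1 FPKM and was left out of the median. The receptor *fgfr1a*, of the FGF pathway, had 25.01 FPKM.

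Factors of maternal RNA clearance had a median of 31.6 FPKM, and 12 of 15 reached 10 FPKM, against 37.5% of all genes. In the CCR4-NOT complex, which shortens poly(A) tails, the deadenylase *cnot8* had 307 FPKM and exceeded its relative *cnot7*, at 5.28 FPKM, by 58.2 times. *cnot6a* had 121 FPKM and the scaffold *cnot1*, with a shared span, had 82.9 FPKM. In the microRNA pathway the processing factor *dgcr8* had 80.3 FPKM, its partner *drosha* 8.98 FPKM, *dicer1* 20.3 FPKM, the Argonaute *ago2* 31.6 FPKM and the adaptor *tnrc6a* 24.7 FPKM. *ythdf2*, which binds methylated RNA, had 75.4 FPKM. The exonuclease *xrn1* and the decay helicase *upf1* had 61.1 and 34.1 FPKM, and the decapping genes were lower, with *ddx6* at 12.4 FPKM, *dcp2* at 11.8 FPKM and *dcp1a* at 3.596 FPKM.

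Early zygotic genes, whose transcription in zebrafish starts at or soon after genome activation, had a median similar to that of the maternal lists. How much of each level was made by the embryo and how much came from the egg cannot be told here. The zinc finger gene *blf* was the highest at 342 FPKM, followed by the small heat shock gene *hspb1* at 244 FPKM, the apolipoprotein gene *apoeb* at 233 FPKM and the SoxC gene *sox11b* at 223 FPKM. *vgll4l*, *nnr* and *klf17* (named *klf4* in the table) had 189, 176 and 122 FPKM. These 7 genes each exceeded 100 FPKM, as did 4.85% of all genes. *sox11b* exceeded its paralogue *sox11a*, at 65.6 FPKM, by 3.39 times.

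Regulators of early patterning lay in the middle of this list. *mxtx2*, a homeobox gene of the yolk syncytial layer, had 73.9 FPKM and *mxtx1* had 17.9 FPKM. The ventral repressor *vox* had 60.5 FPKM and its relative *vent* had 17.8 FPKM, whereas the dorsal repressor *dharma* had 9.51 FPKM. *irx7* had 41.6 FPKM, the list's median, and *foxd3* had 15.4 FPKM. The Apelin receptors *aplnrb* and *aplnra*, which act in cell movement at the margin, had 47.4 and 13.7 FPKM. Other members were *gadd45bb* at 89.7 FPKM, *cldne* at 36.6 FPKM, the FGF feedback gene *dusp6* at 29.3 FPKM, *ier5l* at 28.5 FPKM, *isg15* at 17.8 FPKM and *ier2* at 15.4 FPKM. The only members under 10 FPKM besides *dharma* were *her3*, a Hairy-related repressor, at 5.53 FPKM and *polr3g*, of RNA polymerase III, at 0.961 FPKM. The list held *polr3gl*, which was matched to *polr3g* under an older symbol, and the genes that the table names *polr3gla* and *polr3glb* had 71.9 and 1.31 FPKM.

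Mesoderm genes were divided between a few present and many near 0. Of 17 matched, 11 were below 1 FPKM, but so were 17604 of all 32468 listed genes, so such a divide was not particular to this list. The 11 mesoderm genes with status OK had a median of 2.59 FPKM. *snai1a*, a repressor of the margin, had 106 FPKM and the T-box gene *tbx16* had 61.1 FPKM. The Brachyury orthologue *ntla* had 10.6 FPKM, so that *tbx16* exceeded it by 5.78 times. FGF ligands of the margin were lower, with *fgf17* at 7.59 FPKM, *fgf8a* at 4.34 FPKM and *fgf3* at 2.59 FPKM. The genes *eve1*, *msgn1*, *tbx6*, *cdx4* and *tbx1* had between 0.392 and 0.169 FPKM, and *myf5*, *wnt3a*, *fgf24*, *mespaa*, *ntlb* and *cdx1a* were not tested, at 0.141 FPKM or less.

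Endoderm genes had a median of 2.37 FPKM over 10 genes with status OK. At least 10 FPKM was reached by 37.5% of all genes and by 2 (20%) of these. The 2 were *cxcr4a*, a chemokine receptor, at 73.04 FPKM and the forkhead gene *foxa* at 34.5 FPKM. Whole-embryo values do not show in which cells they were transcribed. The specifying factors were lower. The Mix-type gene *mixl1*, named *bon*, had 6.13 FPKM and *mezzo*, named *og9x*, had 1.61 FPKM. *sox32*, which commits cells to endoderm, had 2.69 FPKM and its target *sox17* had 0.626 FPKM. *gata5* and *gata6* had 2.05 and 0.864 FPKM, while *foxa3*, *foxa2* and *foxa1* had 8.19, 0.854 and 0.0230 FPKM, the last not tested.

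Dorsal genes were present at low to moderate levels. Over the 18 dorsoventral and Nodal genes the median was 7.10 FPKM. Of them, 7 (38.9%) reached 10 FPKM, which is near the 37.5% of all genes. The notochord factor *noto*, named *flh*, was the highest at 60.7 FPKM, above the organizer repressor *gsc* at 15.1 FPKM and the Wnt antagonist *dkk1b* at 7.34 FPKM. *otx1b*, with a shared span, had 25.1 FPKM and *lhx1a* had 5.45 FPKM. The anterior gene *otx2* and the Wnt antagonist *frzb* had 0.280 and 0.170 FPKM.

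Ectoderm and neural plate genes had a median of 9.03 FPKM over 15 genes. Of them, 7 (46.7%) reached 10 FPKM, against 37.5% of all genes. E-cadherin (*cdh1*), the adhesion protein of the whole blastoderm, had 205 FPKM with a shared span, and *zic2b* had 119 FPKM, exceeding *zic2a*, at 8.38 FPKM and with a shared span, by 14.2 times. Factors of ventral and non-neural ectoderm were moderate, with *gata3* at 35.5 FPKM, *tfap2a* at 30.6 FPKM, *foxi1* at 21.2 FPKM, *gata2a* at 18.3 FPKM and *tfap2c* at 6.74 FPKM. *stm*, with a shared span, had 28.2 FPKM. The epidermal gene *tp63* had 0.889 FPKM and the placodal gene *dlx3b* had 0.0641 FPKM. Genes of the later neural plate were near 0, with *rx3* at 0.332 FPKM, *sox21b* at 0.0829 FPKM, *sox1a* and *six3b* not tested at 0.0658 and 0.0346 FPKM, and *hesx1* listed at 0.

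The enveloping layer is the first differentiated tissue of the embryo, and its genes varied widely among themselves. The median was 8.58 FPKM over 14 genes, and 6 (42.9%) reached 10 FPKM, against 37.5% of all genes. The adhesion gene *epcam* had 850 FPKM, which was 56.9% of the list's sum, and *cldnd*, a tight junction claudin, had 332 FPKM. In whole embryos these levels need not come from that layer alone. The transcription factor *grhl3* had 118 FPKM and *grhl1* had 8.10 FPKM. Keratins spread widely. *krt8* had 74.0 FPKM, *krt4* 47.5 FPKM, *krt5* 7.50 FPKM and *krt92* 6.18 FPKM, whereas *cyt1*, with a shared span, and *cyt1l* had 0.184 and 0.0991 FPKM. *krt18* was marked as failed at 120 FPKM and *krt17* as not tested at 0.0376 FPKM. The structural genes *ppl*, *anxa1a* and *cldnf* had 9.06, 2.99 and 1.31 FPKM.

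Zebrafish carry many gene pairs from a genome duplication in the teleost ancestor, usually named with a final a and b. Pairs by name in which both copies had status OK numbered 932, of which 614 had a higher copy of at least 10 FPKM. Pairs with a copy outside that status were left out. The median ratio of the higher to the lower copy was 2.30 on the log2 scale. The copies were within 2-fold of each other in 157 pairs (25.6%), over 10-fold apart in 213 (34.7%) and over 100-fold apart in 36. With every listed gene, whatever its status, 298 pairs were over 10-fold apart and the median log2 ratio was 2.62. The status therefore removed many unequal pairs. The a copy was higher in 321 pairs and the b copy in 293. Both copies reached 10 FPKM in 286 pairs, and the lower copy was under 1 FPKM in 99. Some pairs matched by name are not such duplicates, so these counts are approximate. Among them are lettered members of a complex, such as *tbca* and *tbcb*, and separate genes of a family, such as *gsk3a* and *gsk3b*. The pair of *gsk3a* and *gsk3b* was counted among those over 10-fold apart, with a log2 ratio of 7.05.

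The most unequal pair with both copies of status OK was *hmga1a*, at 1250 FPKM, and *hmga1b*, at 0.196 FPKM, a log2 ratio of 12.64. The phosphatase gene *acp5a* had 818 FPKM and *acp5b* 0.266 FPKM, a log2 ratio of 11.58. The ferritin heavy chain gene *fth1a* had 703 FPKM, against 0.777 FPKM for *fth1b*, a log2 ratio of 9.82. The mitochondrial phosphate carrier gene *slc25a3b* had 141 FPKM and *slc25a3a* 0.201 FPKM (log2 ratio 9.46), and the folate enzyme gene *mthfd1b* had 91.2 FPKM and *mthfd1a* 0.156 FPKM (log2 ratio 9.19). In each of these pairs almost all of the pair's level came from 1 copy. At the other end, the histone chaperone genes *setb* and *seta*, at 431 and 419 FPKM, were nearly equal.

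**Figure D4:**
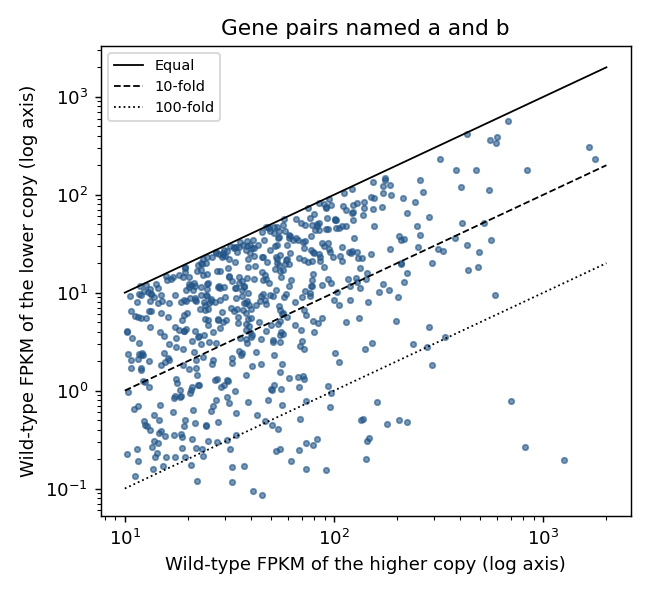
Wild-type FPKM of the higher copy (x axis) and the lower copy (y axis), both logarithmic, for 614 gene pairs named a and b. Both copies had status OK and the higher copy had at least 10 FPKM. Points on the solid line are equal copies, and 213 points lie below the dashed line for a 10-fold ratio.

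By chromosome, the mitochondrial chromosome held 5.48% of the summed FPKM with 14 genes of status OK, which leave out *mt-co1*. Without genes of shared span it held 2.14%. Among the 25 nuclear chromosomes, the share of FPKM ran from 0.571 to 1.68 times the share of genes. Chromosome 14 was at the upper end, with 2.999% of genes, 5.05% of the sum and the highest median of the chromosomes at 7.72 FPKM. It carries *hnrnpa0l*, its highest gene, and both cyclin A2 genes. Chromosome 4 was at the lower end, with 7.25% of genes, 4.14% of the sum and a median of 2.09 FPKM, and its highest gene was *AL935186.6*. On chromosome 4, 497 genes starting before 30 Mb had a median of 4.41 FPKM, whereas 967 genes starting beyond that point had a median of 1.72 FPKM, and 36.0% and 15.7% of them reached 10 FPKM. The long arm of chromosome 4 is known for repeats and multicopy gene families, whose values depend on how reads with several matches are divided.

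**Figure D5:**
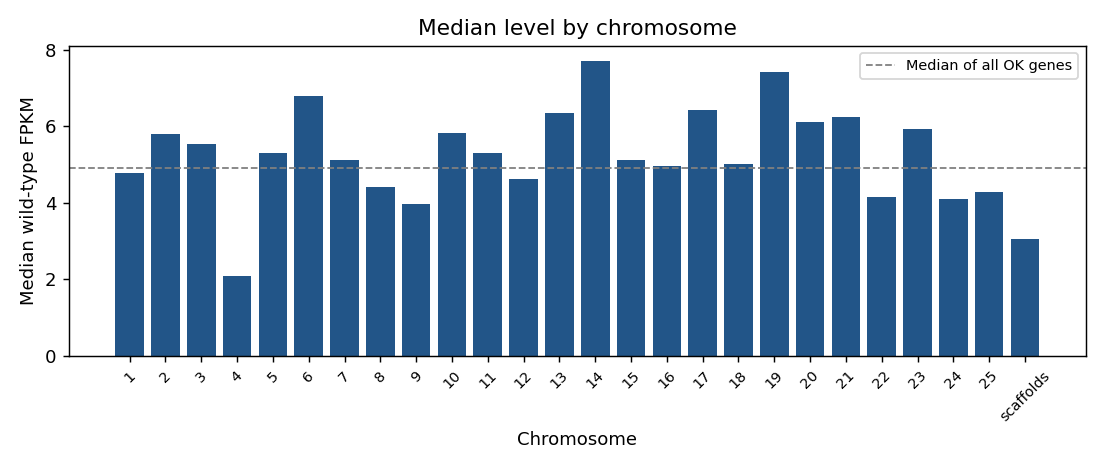
Median wild-type FPKM of genes with status OK on each of 25 nuclear chromosomes and on unplaced scaffolds, with the median of all genes, 4.92 FPKM, as a dashed line. Chromosome 14 is the highest at 7.72 FPKM and chromosome 4 the lowest at 2.09 FPKM.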

How the data were processed

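RNA of 2 wild-type AB samples was sequenced as poly(A) libraries. The authors mapped reads with TopHat2 2.0.5 to Zv9, per the submitters' processing notes, and ran Cufflinks, whose option -u divides reads that match several places. The annotation version is not given in the sources used here. The deposited FPKM values combine both samples, so no replicate error, interval or depth is known. Columns of the authors' comparison (mutant level, fold change, test statistic, p-value and q-value) were not used, apart from the status.

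Starts are listed counting from 0 and are given here counting from 1. Levels were ranked, summed and grouped with Python 3.11.15, numpy 2.4.6 and pandas 2.3.3, and figures drawn with matplotlib 3.10.9. No test was made. Genes whose listed spans overlap were marked as shared. Gene symbols were matched to current symbols by identifier.

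Genes named were the 30 highest, most list members, the 3 highest of each class, the 5 most unequal pairs and the highest gene of chromosomes at the ends of the range. Of the later tissue markers only a part was named, and that part was not fixed in advance. Other genes were chosen after their values were seen, as was the division of chromosome 4 at 30 Mb and of histones by name. The members and lists were chosen with earlier results of these data known, and class patterns were corrected after the names were seen. A value was taken as moved by an alternative when it changed over 1.5 times. The values of some list members are not reported here. Functions for shares, pair ratios and overlapping spans were run on made-up inputs, where the check of the top share repeated its own formula. Class assignment and list matching were not checked in that way.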

Additional observations from a re-analysis of the deposited data

How the results depend on the processing

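Of 315 values recomputed under alternative settings, 298 stayed within 1.5 times of the value reported and 17 did not. Part of the 298 could hardly have moved. Leaving out genes under 1 FPKM kept all 51 values, but genes between 0.1 and 1 FPKM held only 0.401% of the sum. Genes outside the status OK likewise held little of it. The count of 298 is therefore no measure of how stable the results are. Raising the minimum level lowered the count of 14768 genes to 7586 at 10 FPKM and 981 at 100 FPKM. Taking every listed gene whatever its status lowered the median of the mesoderm list to 0.185 FPKM and of the later tissue markers to 0.0257 FPKM. Taking only list members of at least 1 FPKM raised the medians to 9.08 FPKM for mesoderm, 6.13 for endoderm, 24.7 for ectoderm and neural plate, 22.6 for the enveloping layer and 1.54 for later tissue markers. Without genes that share their listed span, the mitochondrial genome class held 2.03%, the mitochondrial chromosome 2.14%, DNA replication 0.491% and small nucleolar and nuclear RNA genes 0.527% of the sum. Without spans under 300 bases, microRNA genes held 0.00137%, ribosomal RNA genes 0.171% and small nucleolar and nuclear RNA genes 0.584%. Without the mitochondrial chromosome the 10 highest genes held 3.95%. These shifts follow from which genes each setting leaves out. No paired analysis was possible because only 1 combined value per gene and group is deposited and no test was made.

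The main limits are the lack of values per sample, unknown depth, uncertain FPKM of short, repeated or overlapping genes, strand use in counting not given in the sources used here, poly(A) selection, and classes and pairs assigned from symbols.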

Other observations

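Some lysosomal genes were abundant in wild-type embryos. Their list was chosen after part of its values had been seen, so its share of high genes says nothing about the class. Of 35 lysosomal entries with status OK, 10 had at least 100 FPKM, as did 4.85% of all genes. Together the 35 entries, among them entries of *scarb2* with the same value, held 1.07% of the summed FPKM. After *ctsl1a*, the highest were *acp5a* at 818 FPKM, the protease gene *ctsba* at 771 FPKM, the membrane protein gene *lamp2* at 741 FPKM, the cholesterol-binding protein gene *npc2* at 706 FPKM and the saposin precursor gene *psap* at 581 FPKM. Most members were far lower, and the median of the list was 12.7 FPKM. *hexb*, *ctsk*, *gusb*, *acp5b* and *grna* were under 1 FPKM. Glycolytic genes, chosen in the same way, held 0.178% over 20 genes with a median of 16.3 FPKM, led by the lactate dehydrogenase gene *ldhba* at 224 FPKM.

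Among genes without the status OK, some marked as failed had high listed values: *zgc:55413* had 459 FPKM, the apoptosis-related chromatin gene *acin1a* 249 FPKM, the condensin gene *ncapg* 169 FPKM and the replication helicase gene *mcm4* 120 FPKM. The 84 failed genes held 0.754% of the FPKM summed over all listed genes.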
